A study of Mus musculus with 3 samples.

Results

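The glial and myelin marker genes examined here are 8 mouse genes chosen by name, Gfap, Aldh1l1, Slc1a3, Glul, S100b, Pmp22, Mbp and Sox10, among 18348 named genes on the array. The choice was made with earlier results of these data known. The 8 genes were read by 13 probes in 22 spots per array: 4 genes had 1 probe, 3 had 2 and 1 had 3. Every culture came from C2C12, an established line of mouse muscle precursors whose cells join into long myotubes in low serum, and was hybridised as Cy3-labelled RNA to 1 one-colour Agilent array per group. Neurogenic cellulates were BIO cellulates kept for 7 days in DMEM/F12 medium with N2 supplement, plated on laminin, and had also received reversine (250 nM, 48 h) and all-trans retinoic acid (1.5 µM, 7 days). BIO cellulates were made from myotubes formed over 8 days at 2% horse serum. AraC at 10 µM was present on days 2 to 4, the microtubule drug myoseverin then broke the myotubes up over 48 h, and the GSK-3 inhibitor BIO followed 24 h after it for 2 days. The labels disagree on doses: BIO is 2.5 µM in the sample labels and 10 µM in the protocol and the series text, and myoseverin is 30 µM in the protocol and 20 µM in the series text. Myoblasts were untreated. Neither myotubes nor cellulates that had no BIO were analysed here, so these agents, differentiation and time cannot be told apart. How many cultures each array stands for is not given in the sources used here. With 1 array per group there was no error between cultures and no test, and the number of arrays limits every value.

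Glia are the supporting cells of the nervous system. Astrocytes take up glutamate from synapses, convert it to glutamine and build a filament network, while oligodendrocytes in the brain and Schwann cells in nerves wrap axons in myelin, a stack of membrane held together by dedicated proteins. Several of these genes are also active outside the nervous system, among them Glul in muscle and Pmp22 in growth-arrested fibroblasts, so RNA from any 1 of them does not name a cell as glial.

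Signals are given as multiples of the 75th percentile of each array's non-control spots: 156 intensity units for neurogenic cellulates, 115 for BIO cellulates and 181 for myoblasts. A probe counts as measured where the scanner software called it well above background, as it did for 45.7% of 43379 spots in neurogenic cellulates, 46.9% in BIO cellulates and 50.7% in myoblasts. The lowest signal so called was 26.2 intensity units in neurogenic cellulates, 17.3 in BIO cellulates and 13.6 in myoblasts. Probes spotted repeatedly gave the only repeat measure: at the members' brightness, 95% of ratios of single spots would lie within 1.38-fold for neurogenic against BIO cellulates, 1.47-fold for neurogenic cellulates against myoblasts and 1.50-fold for BIO cellulates against myoblasts. These limits and the 95% limits given with each ratio, which come from the software's error of each spot, cover technical error within arrays only.

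Measured on all 3 arrays were 7 members, through 1 probe each, and all 7 were dim, between 24.1 and 158 intensity units. Pmp22, Aldh1l1 and Glul were at least 2-fold higher in neurogenic cellulates than in myoblasts. Sox10, Mbp and S100b stayed within 1.39-fold in that comparison, Gfap was 1.74-fold higher, and the glutamate transporter gene Slc1a3 was not well above background on any array. Of the other probes, 5 were dim on every array, and the second Glul probe was measured on the neurogenic cellulate array alone. In RNA from whole cultures, fewer cells of a type and less RNA per cell cannot be told apart.

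**Figure D1:**
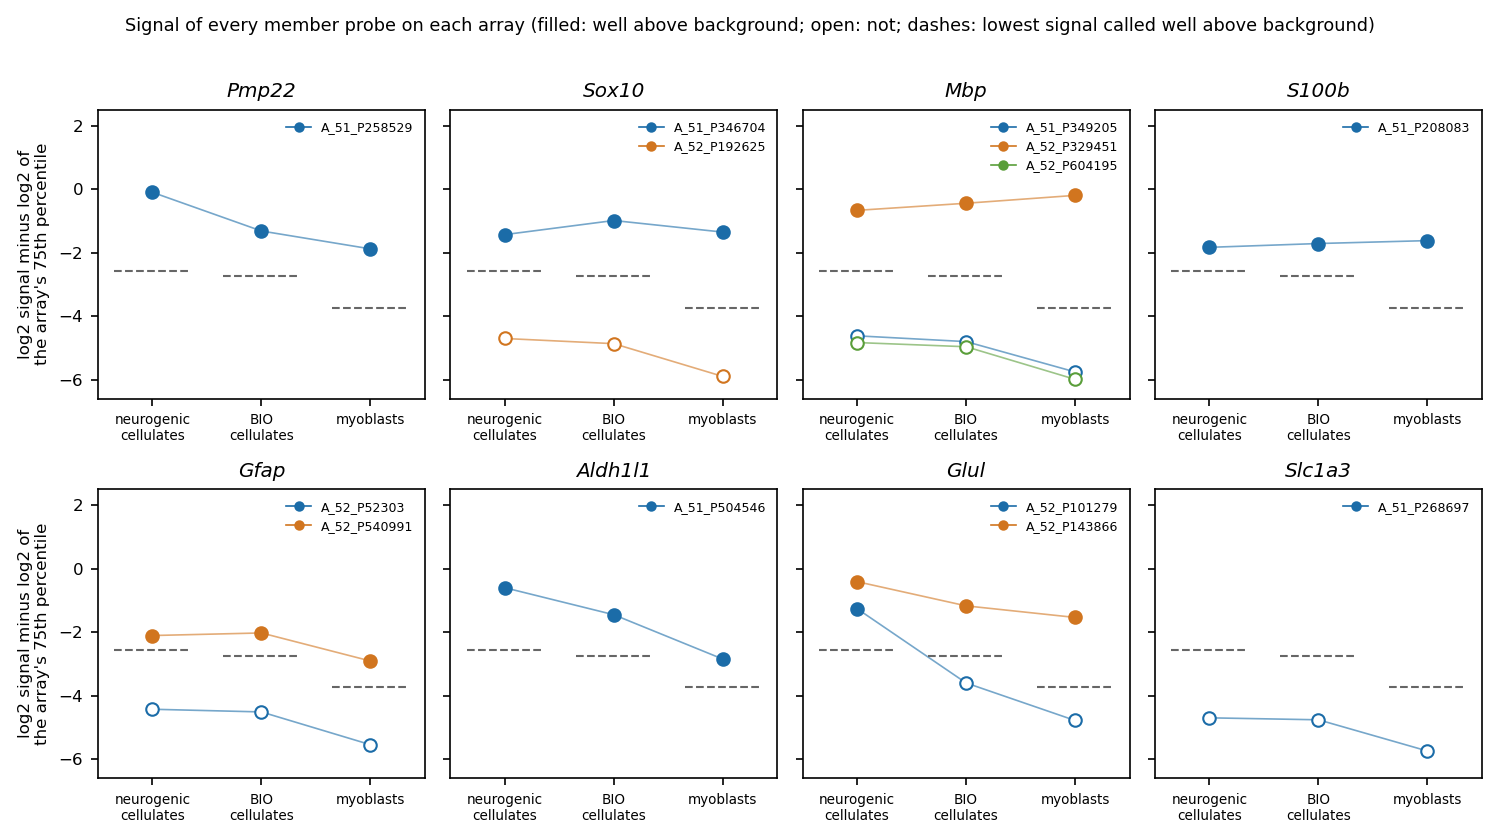
Scaled signal of each member's probes (log2 of the signal over the array's 75th percentile) in neurogenic cellulates, BIO cellulates and myoblasts, 1 array each. Filled points were well above background and open points were not; Pmp22, Aldh1l1 and Glul are highest in neurogenic cellulates, while Slc1a3 has only open points.

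Aldh1l1 encodes 10-formyltetrahydrofolate dehydrogenase, a folate enzyme widely used to mark astrocytes. Its signal was 0.661 times the 75th percentile in neurogenic cellulates, 0.367 in BIO cellulates and 0.139 in myoblasts, from processed intensities of 103, 42.1 and 25.2. The 3 arrays thus lay in a graded order, and both cellulate arrays were above myoblasts. Aldh1l1 was 1.80-fold higher in neurogenic than in BIO cellulates (log2 ratio 0.85, 95% limits 0.31 to 1.39) and 4.75-fold higher in neurogenic cellulates than in myoblasts (2.25, 1.62 to 2.87). The ratio over BIO cellulates dropped to 0.30 with normexp background correction, which models background from pixel intensities and here added an offset of 50. That offset shrinks the ratios of dim probes, and no repeat-spot limit was computed for normexp values. The same ratio passed 2-fold with a percentile over bright probes, those well above background on all arrays (1.03), and with scaling on spike-in controls (1.21). Aldh1l1 was 2.63-fold higher in BIO cellulates than in myoblasts (1.40, 0.72 to 2.07), but below 2-fold under 3 of 8 alternatives, with 0.68 at the lowest. Among the 8, the dim filter and the choice of probe could not change a ratio from a single measured probe. The deposited table, the same intensities shifted, could hardly change it. The myoblast signal was only 1.85 times the lowest signal called well above background on that array, so the folds against myoblasts rest on a reading near the floor.

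Glul encodes glutamine synthetase, which joins ammonia to glutamate. Its brighter probe gave 0.754 in neurogenic cellulates, 0.445 in BIO cellulates and 0.345 in myoblasts, from intensities of 117, 51.1 and 62.5. Neurogenic cellulates were highest, and the other two arrays differed by less than the repeat-spot limit. The ratio was 1.70-fold for neurogenic over BIO cellulates (log2 0.76, 0.29 to 1.23), 2.18-fold for neurogenic cellulates over myoblasts (1.13, 0.69 to 1.57) and 1.29-fold for BIO cellulates over myoblasts (0.36, -0.10 to 0.83). Scaling arrays to their medians turned the last of these to -0.35 and the ratio of neurogenic cellulates over myoblasts to 0.40, below 2-fold as under 3 of 8 alternatives. The ratio over BIO cellulates ran between 0.35 with normexp and 1.12 with the median over both probes.

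The second Glul probe pointed the same way with larger folds. It read 0.418 in neurogenic cellulates, where it was well above background, and 0.0826 and 0.0364 in BIO cellulates and myoblasts, where it was not. Neurogenic cellulates were therefore at least 2.78-fold higher than BIO cellulates and at least 5.56-fold higher than myoblasts by this probe. Such a pattern was not rare: of 2360 probes dim on the BIO cellulate and myoblast arrays whose gene had another probe well above background, 192 (8.14%) were well above background in neurogenic cellulates. The matching share for the BIO cellulate array alone was 3.60%, 81 of 2249 probes.

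Slc1a3 encodes the glutamate transporter GLAST, by which astrocytes clear glutamate. Its single probe read 0.0386 in neurogenic cellulates, 0.037 in BIO cellulates and 0.0187 in myoblasts, below the lowest signal called well above background on each array. No fold is given, since genes dim on both arrays compared had a median log2 ratio of 1.14 for neurogenic cellulates over myoblasts.

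Gfap encodes the intermediate filament protein of astrocytes. The probe that was well above background gave 0.233 in neurogenic cellulates, 0.246 in BIO cellulates and 0.134 in myoblasts, at 1.38, 1.64 and 1.78 times each array's lowest signal so called. The cellulate arrays were close to each other, with a log2 ratio of -0.08 (-0.82 to 0.66), and both read above myoblasts. The ratio to myoblasts was 1.74-fold in neurogenic cellulates (0.80, 0.08 to 1.53) and 1.84-fold in BIO cellulates (0.88, 0.19 to 1.57), short of 2-fold in both. These ratios turned on the scaling: array medians gave 0.07 in neurogenic and 0.17 in BIO cellulates, and quantile normalisation 0.22 and 0.34. The percentile over bright probes gave 1.15 and 1.05, past 2-fold, and spike-in scaling 1.03 and 0.76. Over myoblasts, genes in the members' signal range had median log2 ratios of 0.21 (neurogenic) and 0.33 (BIO). Genes dim on both arrays compared had medians of 1.14 and 1.01. The Gfap ratios did not exceed the latter, and with readings this near the floor they do not establish a rise. The other Gfap probe, designed to a second transcript, was dim on every array.

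S100b encodes a calcium-binding protein of astrocytes and Schwann cells. It read 0.280 in neurogenic cellulates, 0.305 in BIO cellulates and 0.325 in myoblasts, and no pair of arrays differed by more than the repeat-spot limit. The log2 ratios were -0.12 (-0.73 to 0.49) for neurogenic over BIO cellulates, -0.21 (-0.76 to 0.34) for neurogenic cellulates over myoblasts and -0.09 (-0.61 to 0.43) for BIO cellulates over myoblasts. The limits are wide, so equal levels are not shown.

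Pmp22 encodes a membrane protein of compact Schwann cell myelin, and was first described as a growth arrest-specific gene. Its signal was 0.932 in neurogenic cellulates, 0.401 in BIO cellulates and 0.271 in myoblasts, from intensities of 145, 46.0 and 49.1. The neurogenic cellulate array stood apart from the other two. Pmp22 was 2.33-fold higher in neurogenic than in BIO cellulates (log2 1.22, 0.72 to 1.72) and 3.44-fold higher in neurogenic cellulates than in myoblasts (1.78, 1.32 to 2.25). The log2 ratio over BIO cellulates dropped to 0.50 with normexp background correction. Between BIO cellulates and myoblasts it was 1.48-fold higher (0.56, 0.04 to 1.09), within the repeat-spot limit, and at -0.15 with scaling to array medians.

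Mbp encodes myelin basic protein, which holds the inner faces of the myelin membrane together. Its measured probe gave 0.629 in neurogenic cellulates, 0.734 in BIO cellulates and 0.872 in myoblasts. The untreated myoblasts were highest and neurogenic cellulates lowest, by 1.39-fold (log2 -0.47, -0.91 to -0.04), which is within the repeat-spot limit. The steps between neurogenic and BIO cellulates (-0.22, -0.67 to 0.23) and between BIO cellulates and myoblasts (-0.25, -0.67 to 0.17) were smaller. The other Mbp probes, 1 of them spotted 10 times, were dim on all 3 arrays, so the level rests on 1 probe of 3.

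Sox10 encodes a transcription factor of the neural crest that Schwann cells and oligodendrocytes need. It read 0.370 in neurogenic cellulates, 0.504 in BIO cellulates and 0.391 in myoblasts by 1 probe, while the other probe was dim throughout. BIO cellulates gave the highest reading, but none of the ratios passed the repeat-spot limits. The log2 ratio was -0.44 (-1.05 to 0.16) for neurogenic over BIO cellulates, -0.08 (-0.65 to 0.49) for neurogenic cellulates over myoblasts and 0.36 (-0.13 to 0.86) for BIO cellulates over myoblasts, the last turning to -0.35 with scaling to array medians.

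**Figure D2:**
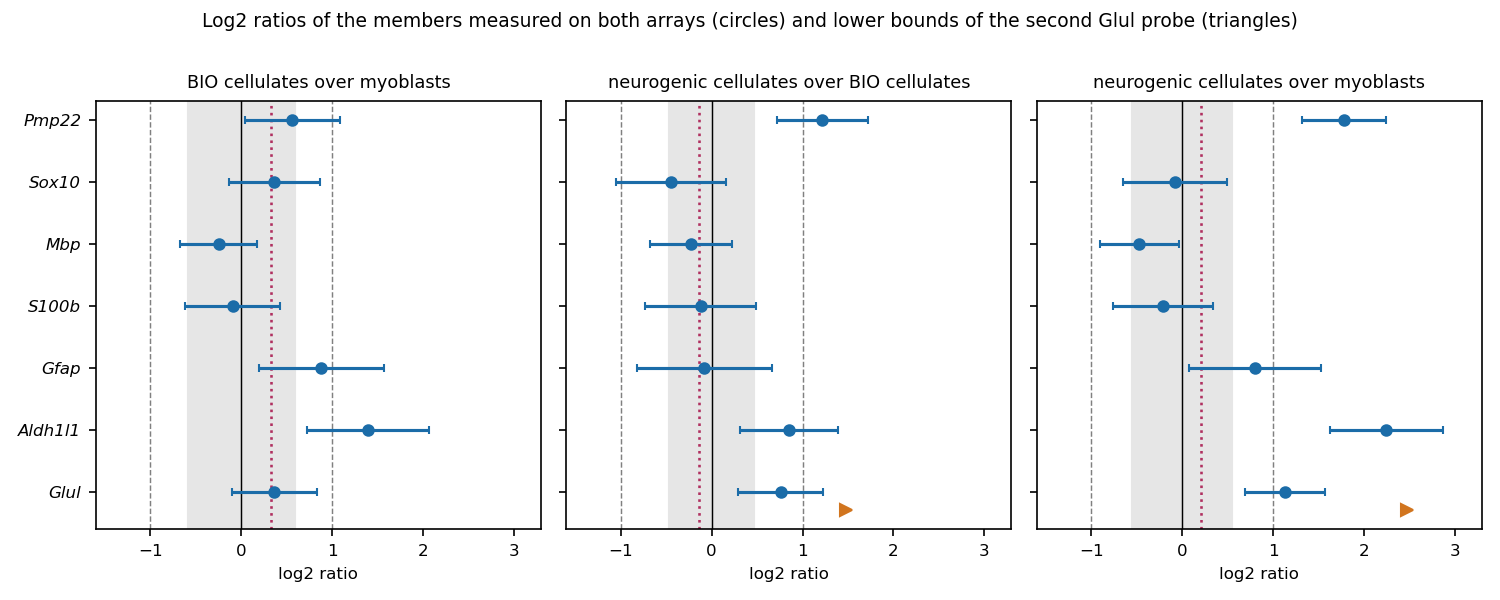
Log2 ratio of each measured member in the 3 comparisons: circles with bars of 1.96 times the software's error, triangles for the lower bounds of the second Glul probe. The grey band is the 95% repeat-spot limit, the dotted line the median of all genes in the members' signal range and the dashed lines 2-fold; Aldh1l1 reaches 2.25 and Pmp22 1.78 for neurogenic cellulates over myoblasts.

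Set against the whole array, 1 of 7 measured members, Pmp22, was at least 2-fold higher in neurogenic than in BIO cellulates and 0 were lower, where 4.16% of 12255 genes compared were higher (2.45% of those measured on both arrays) and 1.80% lower. The members' median log2 ratio was -0.08, beside -0.17 over all genes (-0.18 over those measured on both). In neurogenic cellulates against myoblasts 3 of 7 were higher and 0 lower, where 12.1% of 12853 genes were higher (9.35% of those measured on both) and 10.0% lower. The median was 0.80, beside -0.06 over all genes (-0.15 over those measured on both) and 0.21 over genes of like signal. In BIO cellulates against myoblasts 1 of 7, Aldh1l1, was higher and 0 lower, where 11.2% of 12828 genes were higher (8.42% of those measured on both) and 6.01% lower. The median there was 0.36, beside 0.00 over all genes (0.01 over those measured on both) and 0.33 over genes of like signal. The comparisons share arrays, so their values are not separate evidence. The members were chosen with earlier results of these data known, so these counts and medians cannot show an enrichment of glial genes.

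Among 2965 genes whose signals on both arrays lay in the members' range, 9.31% were at least 2-fold higher in neurogenic cellulates than in myoblasts. The share was 1.27% of 3627 such genes for neurogenic over BIO cellulates and 10.6% of 3148 for BIO cellulates over myoblasts. That range is in intensity units before scaling, and the scaling differs between arrays. A scaled 2-fold rise needed a larger rise in intensity for neurogenic over BIO cellulates than in the comparisons with myoblasts. The range thus limited folds unequally, so these shares cannot be ranked or show how rare the Pmp22 rise was. The medians over genes of like signal carry the same limit. Among genes measured on both arrays at any brightness, 2.45% were higher in neurogenic than in BIO cellulates. The share was 9.35% for neurogenic cellulates and 8.42% for BIO cellulates, both over myoblasts. For BIO cellulates over myoblasts, the members' count of 1 in 7 is near the share over all genes.

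The start regions of the 3 genes that passed 2-fold are shown because the neurogenic medium held retinoic acid, whose receptors bind pairs of a 6-base half-site. The half-site searched on either strand was AGGTCA, along with its close forms AGTTCA, then GGGTCA, and lastly GGTTCA, and matches are in capitals. Each sequence is the 250 bases before a RefSeq start site on GRCm38.p6, all on the plus strand: Aldh1l1 at chr6:90550543-90550792, Glul at chr1:153899679-153899928, and the first and second of 4 Pmp22 start sites at chr11:63128732-63128981 and chr11:63131207-63131456.
Aldh1l1: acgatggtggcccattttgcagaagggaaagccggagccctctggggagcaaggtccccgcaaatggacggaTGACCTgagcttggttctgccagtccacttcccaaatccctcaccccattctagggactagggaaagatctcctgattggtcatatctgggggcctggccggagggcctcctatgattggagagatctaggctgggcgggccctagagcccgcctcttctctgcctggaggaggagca
Glul: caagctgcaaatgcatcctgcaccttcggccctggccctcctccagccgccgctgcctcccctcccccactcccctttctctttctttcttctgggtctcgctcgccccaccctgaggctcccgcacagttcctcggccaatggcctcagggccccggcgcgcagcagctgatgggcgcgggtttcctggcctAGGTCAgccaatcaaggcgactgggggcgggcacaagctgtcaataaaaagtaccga
Pmp22, first start: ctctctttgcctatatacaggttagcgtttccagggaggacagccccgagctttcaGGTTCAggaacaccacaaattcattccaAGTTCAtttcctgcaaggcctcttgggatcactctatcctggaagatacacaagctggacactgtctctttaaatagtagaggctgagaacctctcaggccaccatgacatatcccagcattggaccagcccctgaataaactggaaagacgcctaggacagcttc
Pmp22, second start: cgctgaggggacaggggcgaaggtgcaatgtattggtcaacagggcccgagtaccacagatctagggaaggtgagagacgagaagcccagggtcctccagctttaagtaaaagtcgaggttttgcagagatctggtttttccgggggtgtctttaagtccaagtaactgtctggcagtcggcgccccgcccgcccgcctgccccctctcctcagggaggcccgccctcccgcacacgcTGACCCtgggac

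Aldh1l1 held AGGTCA on the opposite strand, 173 to 178 bases before the start, and Glul held AGGTCA on its own strand, 52 to 57 bases before it. The first Pmp22 start held GGTTCA at 189 to 194 bases and AGTTCA at 161 to 166 bases, the second GGGTCA on the opposite strand at 7 to 12 bases, and the other two held no match. Gfap, which did not reach 2-fold, held 2 matches, and S100b and Slc1a3 held 0. Over the 6 members searched, 5 of 9 start sites had a match, where 38.6% of 32536 promoters had one. Single half-sites occurred in 14.0% of promoters for AGGTCA, 11.8% for AGTTCA, 11.7% for GGGTCA and 8.81% for GGTTCA. Sox10 and Mbp were not searched. None of the 9 start sites had a direct repeat of these half-sites spaced by 1, 2 or 5 bases, an arrangement found in 0.166%, 0.175% and 0.0891% of promoters. A match is a description of letters and not a binding site, and the array does not show which Pmp22 start was used.

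Wider lists of cell type markers show what surrounded the members. Over all 18348 named genes, 27.8% had no probe well above background on any array, and the 3 glial lists lay near that share. Of 26 astrocyte genes on the array, 8 were dim on all 3 arrays: Slc1a3, Gjb6, Ndrg2, Kcnj10, Slc7a10, Slc4a4, Fabp7 and Mlc1. Apart from the members, 13 astrocyte genes could be compared. In neurogenic cellulates against myoblasts 4 of them were at least 2-fold higher, among them the lipid carrier gene Apoe (log2 1.51), the fatty acid activating enzyme gene Acsbg1 (1.13) and Cbs, of cysteine synthesis (1.04). The adhesion gene Hepacam (-1.14) was lower, as was the transcription factor gene Nfia, which lay at the 2-fold line by 1 probe and at -0.59 by another. Against BIO cellulates 0 of 13 passed 2-fold, with 0.93 for Apoe. In BIO cellulates against myoblasts 2 of 13 were higher, among them Cbs (1.30), and 2 were lower, Nfib (-1.57) and Nfia (-1.27).

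Of 24 genes of Schwann cells and neural crest glia, 5 were dim on all arrays, among them the transcription factor gene Egr2, which drives myelination, the myelin gene Cnp, Gldn and Cdh19. Ngfr, the low-affinity neurotrophin receptor, had log2 ratios of 1.11 for neurogenic over BIO cellulates and 1.73 for neurogenic cellulates over myoblasts, but its second probe gave 0.01 and 0.20. The small heat shock gene Cryab was lower in neurogenic than in BIO cellulates (-1.14, and -0.99 by its other probe). In neurogenic cellulates against myoblasts the neuregulin receptor gene Erbb3 was higher (1.07) and the adhesion gene Cadm4 lower (-1.45). In BIO cellulates against myoblasts Erbb3 (1.32), Pou3f1 (1.32) and Mal (1.02) were higher, 3 of the 15 other genes compared, and 0 were lower. Another Erbb3 probe measured on all arrays stayed under 2-fold, with 0.75 in neurogenic and 0.91 in BIO cellulates, both over myoblasts.

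Of 25 oligodendrocyte and myelin genes, 8 were dim on all arrays, among them Cnp, Olig1, Pdgfra, Gal3st1, Opalin and Tspan2. The receptor gene Gpr17 had log2 ratios of 2.08 for neurogenic cellulates over myoblasts and 1.51 for BIO cellulates over myoblasts. Cd9, a tetraspanin gene, was measured in neurogenic cellulates alone, with lower bounds of 1.44 against BIO cellulates and 2.44 against myoblasts. Enpp6 was lower in neurogenic than in BIO cellulates (-1.56). The RNA-binding protein gene Qk was lower in neurogenic cellulates than in myoblasts (-1.31), but its other probes gave -0.23 and -0.22. Mog, of the outer myelin surface, was measured in BIO cellulates alone, with a lower bound of 1.59 against myoblasts.

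**Figure D3:**
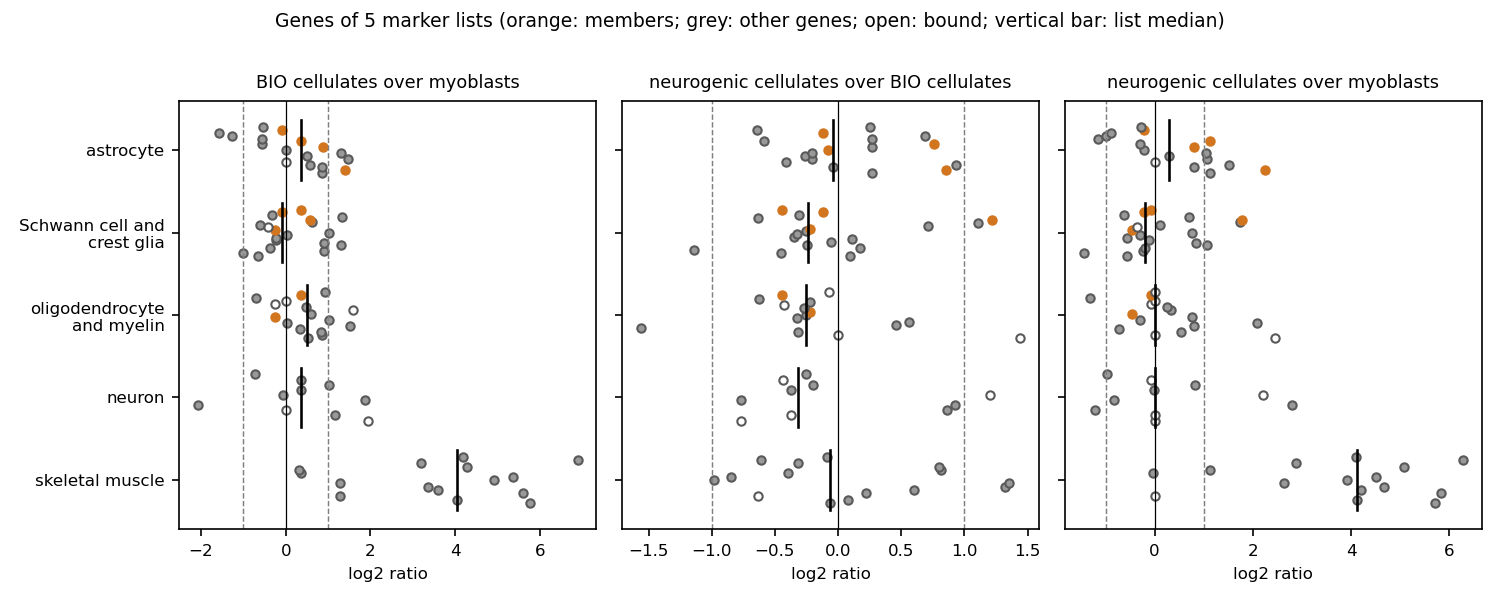
Log2 ratios of the genes of each marker list in the 3 comparisons, with members in orange, other genes in grey, bounds as open points and the list median as a vertical bar. The skeletal muscle medians of 4.12 and 4.04 over myoblasts stand far from those of the glial lists.

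Genes of the members' own pathways and families moved unevenly. Of the glutamate and glutamine genes other than Glul, the transaminase gene Got1 was higher (log2 1.77) and the glutamine transporter gene Slc38a1 lower (-1.57) in neurogenic cellulates against myoblasts, and 0 passed 2-fold in the other two comparisons. Got1 was dim in BIO cellulates, so those comparisons hold only bounds for it, with a lower bound of 0.93 for neurogenic over BIO cellulates. Among folate and aldehyde dehydrogenase genes other than Aldh1l1, only Mthfd1 passed 2-fold, lower in neurogenic cellulates than in myoblasts (-1.73). In the S100 family, neurogenic cellulates had lower S100a6 (-2.08), S100a11 (-1.96) and S100a4 (-1.31) and higher S100a1 (1.39) than myoblasts. S100a10 was measured in neurogenic cellulates alone, with lower bounds of 1.63 against BIO cellulates and 2.63 against myoblasts, and S100a11 was lower than in BIO cellulates (-1.25). BIO cellulates had higher S100a1 (1.24) and lower S100a6 (-1.37) than myoblasts.

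The relatives of Pmp22 differed among themselves in direction. Emp3 had a log2 ratio of -1.82 in neurogenic cellulates over myoblasts and -1.01 in BIO cellulates over myoblasts. Emp1 was measured in BIO cellulates and myoblasts, with -2.70 between them, and was dim in neurogenic cellulates, at least 2.81 log2 units under myoblasts. Emp2 was measured in neurogenic cellulates alone, with lower bounds of 0.47 against BIO cellulates and 1.47 against myoblasts. The lens gene Lim2 was measured in BIO cellulates and not in myoblasts, with a lower bound of 1.28. Among the filament genes listed beside Gfap, the muscle filament gene Des was higher in neurogenic cellulates (4.21) and BIO cellulates (3.61) than in myoblasts. Vim was lower in neurogenic cellulates than in BIO cellulates (-1.23) and myoblasts (-1.50), and Lmna lower than in myoblasts (-1.23).

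Markers of other cells moved in the same comparisons. Of 15 skeletal muscle genes 13 were at least 2-fold higher in neurogenic cellulates than in myoblasts and 13 in BIO cellulates than in myoblasts, with median log2 ratios of 4.12 and 4.04, and 2 were higher in neurogenic than in BIO cellulates, Myh1 (1.35) and the myoglobin gene Mb (1.32). None of the 15 was dim on all arrays, and their summed scaled signal was 3698 in neurogenic cellulates, 4766 in BIO cellulates and 285 in myoblasts. Of 11 fibroblast genes, 10 could be compared. In neurogenic cellulates against BIO cellulates 1 was higher, Dcn (2.69), and 2 were lower, Postn (-2.48) and Tagln (-2.39). Against myoblasts neurogenic cellulates had 2 higher, Dcn (2.72) and Col3a1 (1.40), and 4 lower, Postn (-4.30), Tagln (-3.20), Col1a1 (-1.70) and Fn1 (-1.24). In BIO cellulates against myoblasts Col3a1 was higher (1.10) and Postn (-1.82) and Col1a1 (-1.25) lower. Of 15 neuronal genes 4 were dim on all arrays, and of 7 microglial genes 5 were. The part of these cell types in the members' signals was not tested.

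The genes whose profile over the 3 arrays lay nearest to each member past 2-fold were found among 10666 genes measured on all arrays, by Euclidean distance of centred log2 values. With 3 points per gene this is a description only. Pacsin1 lay nearest to Pmp22, at 0.0139 log2 units, and Uqcr11 followed at 0.0726. Ddit3 (0.0469) and Lamb3 (0.0592) lay nearest to Aldh1l1, and the muscle regulator gene Myog (0.0445) and Cacna2d1 (0.0532) nearest to Glul.

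**Figure D4:**
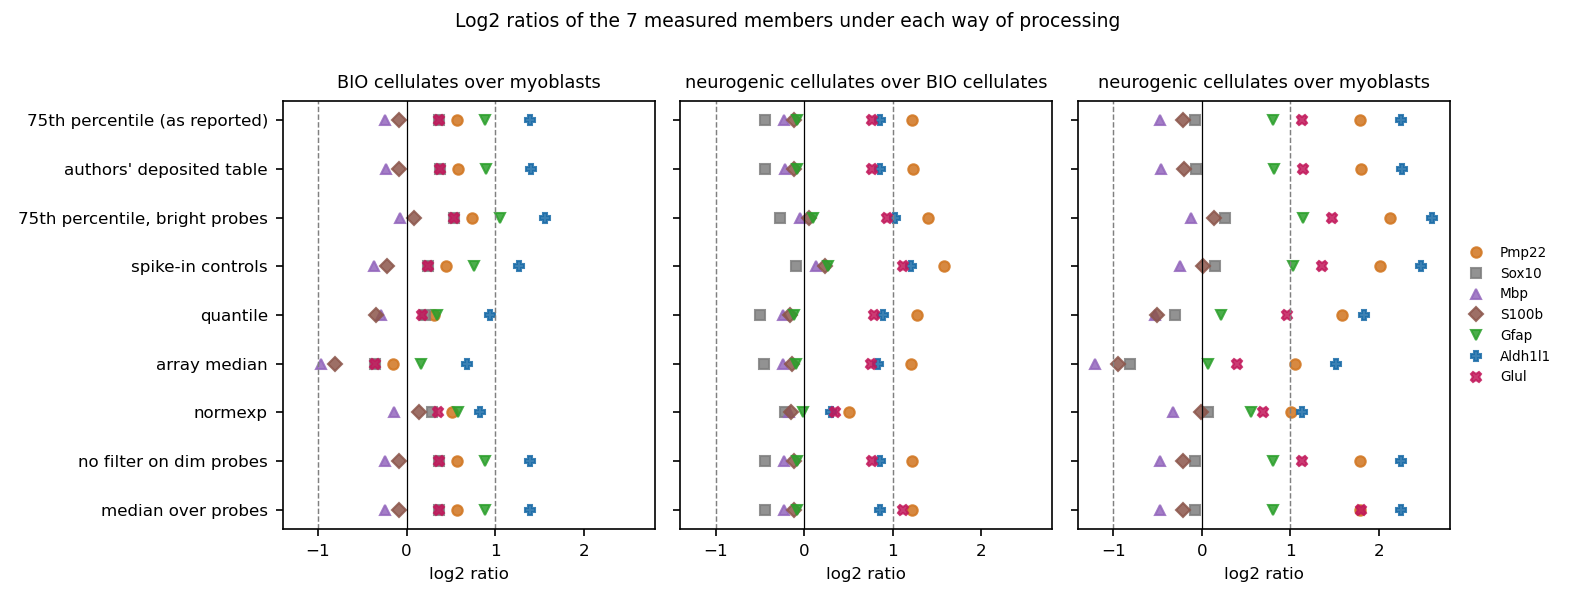
Log2 ratio of each measured member in the 3 comparisons under the scaling used here and 8 alternatives. Pmp22 and Aldh1l1 stay at or above 2-fold for neurogenic cellulates over myoblasts under all 8, from 1.01 to 2.13 and from 1.14 to 2.59. With a single measured probe each, their ratios could not change with the dim filter or the choice of probe. The deposited table holds the same intensities shifted by a constant per array, so it could hardly differ.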

How the data were processed

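The members and gene lists were chosen with earlier results of these data known. Per the labels, Cy3 labelling started from 200 ng of total RNA. Array design 014868 was read with Agilent's Feature Extraction software 10.7.3.1, per the file headers, which name mm9 as the build; it wrote a linear intensity for each spot after background subtraction and detrending. The authors' deposited table is on the log2 scale; its columns are the log2 intensities shifted by 0.23, 0.67 and 0.00 for neurogenic cellulates, BIO cellulates and myoblasts, and was used only as an alternative.

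Controls and outlier spots were dropped, repeat spots were averaged as log2 values, and the log2 of each array's 75th percentile was subtracted. Probes were named by accession through the RefSeq table of GRCm38.p6, which covered 26909 of 41158 probes. A gene took its brightest probe. A gene measured (well above background) on 1 of 2 arrays got a lower bound, against the dim probe's signal or the lowest signal so called, whichever was higher. Genes were called at 2-fold, with bounds included, and genes dim on both arrays were left out, as were 45, 82 and 69 genes whose probes disagreed on background (neurogenic over BIO cellulates, neurogenic cellulates over myoblasts, BIO cellulates over myoblasts). Named were all member probes, list genes past 2-fold (up to 6 per list and comparison) and the 2 genes nearest to each member past 2-fold. Some list genes that met this rule are not reported here. Alternatives covered scaling, background correction (limma 3.58.1 in R 4.3.3, normexp with an offset of 50 on median pixel intensities, since the files hold no mean signal), the filter on dim probes, the choice of probe and the deposited table. Other steps ran in Python 3.11.15 and were tested on simulated data. The simulated folds were placed in genes brighter than most of the members' readings, so calls at the members' brightness were not tested.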

Additional observations from a re-analysis of the deposited data

How the results depend on the processing

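With 1 array per group, no replicate could be left out, and the members' low signal over background limits every fold. No paired analysis was possible because each group was 1 sample. For neurogenic cellulates over myoblasts the number of members past 2-fold stayed between 2 and 4 under the 8 alternatives; scaling to array medians kept Pmp22 and Aldh1l1 higher, dropped Glul to 0.40 and brought Mbp to -1.20. Glul passed in 5 of the 8. Not all 8 could change a call: dropping the dim filter left every measured member's ratio as it was. The choice of probe changed only Glul, and the deposited table holds the same intensities shifted by a constant per array. For neurogenic over BIO cellulates the count of 1 became 0 with normexp background correction (Pmp22 at 0.50), 2 with a percentile over probes bright on all arrays, 2 when several probes were summarised by their median, 3 with 9 spike-in probes for scaling, and 2 with the other Glul probe, an alternative chosen after seeing the data. For BIO cellulates over myoblasts the count of 1 became 0 with array medians (Aldh1l1 at 0.68), 0 with quantile normalisation (0.94), 0 with normexp (0.83), and 2 with the percentile over bright probes. The causes were not tested. Scaling to array medians moved the median of all genes by -0.73 for neurogenic cellulates and -0.66 for BIO cellulates, both over myoblasts, and the share of higher genes among those past 2-fold to 11.5% and 9.07%, beside 54.7% and 65.1%. Spike-in scaling moved the neurogenic over BIO median by 0.34 and that share to 91.8%, beside 69.9%. The percentile over bright probes moved the medians by 0.13 to 0.18 and gave shares of 83.5% for neurogenic over BIO cellulates, 78.9% for neurogenic cellulates over myoblasts and 76.9% for BIO cellulates over myoblasts. For the cellulates over myoblasts, normexp gave 31.4% (neurogenic) and 29.1% (BIO), spike-in scaling 71.8% and 53.8%, and quantile normalisation 55.4% and 50.4%.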

Other observations

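Lmnb1, a nuclear lamina gene in the filament list, was dim in BIO cellulates only, with a lower bound on the log2 ratio of 1.56 for neurogenic over BIO cellulates and at least 1.82 log2 units lower in BIO cellulates than in myoblasts. Of the neuronal genes, the microtubule-binding protein gene Mapt had a log2 ratio of 2.79 and Map2 of -1.21 for neurogenic cellulates over myoblasts. For BIO cellulates over myoblasts the ratios were 1.87 for Mapt and -2.07 for Map2. For neurogenic over BIO cellulates they were 0.93 and 0.86, short of 2-fold. Nefm, a neurofilament gene, was measured in neurogenic cellulates alone, with lower bounds of 1.20 against BIO cellulates and 2.20 against myoblasts.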
